A study of Mus musculus with 29 samples.

Results

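Melanopsin transcript was present in 4 of 8 retinal ganglion cells (RGCs) of the ON direction-selective, ON orientation-selective and ON alpha classes. In 116 of 3455 compared genes (3.36%), the melanopsin gene among them, these 4 cells all lay at least 1 log2 unit above the other 4. Melanopsin, encoded by *Opn4*, is the photopigment of intrinsically photosensitive RGCs (ipRGCs), which respond to light without input from rods and cones. In these cells light activates melanopsin, and a G protein of the Gq family passes the signal through phospholipase C beta to TRPC cation channels. The ipRGCs fall into the types M1 to M6, of which the M4 type is the ON alpha cell. They set the circadian clock and the pupil, and some types also contribute to vision.

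The 8 cells came from a series of 29 RGCs of adult C57BL/6J mouse retina (C57BL/6 in the labels). Each cell was classified by its spike responses to projected light patterns in the intact, non-dissociated retina, and its soma was then drawn into a pipette. The cDNA of that soma was amplified by PCR and hybridized to 1 Affymetrix 430 2.0 array. The mice carried no transgene or treatment according to the labels, and the animal each cell came from is not named in the sources used here. The 8 cells were 4 ON direction-selective cells (ON DS 1 to 4), 1 cell selective for vertical orientation (ON vOS 9), 1 selective for horizontal orientation (ON hOS 10) and 2 ON alpha cells (ON alpha 12 and 13). The numbers are those of the sample labels.

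The cells were chosen by their *Opn4* signals. A cell was placed on the melanopsin side (Opn4+) if any *Opn4* probe set, a group of short probes against 1 transcript, reached a signal of 3000, and all remaining cells of the 8 were called Opn4-. The Opn4+ cells were ON DS 1, ON hOS 10, ON alpha 12 and ON alpha 13. The Opn4- cells were ON DS 2, ON DS 3, ON DS 4 and ON vOS 9. A signal of 3000, which is 2 times the trimmed mean of each array, was also the level at which a gene was called detected. Signals under the trimmed mean divided by 4 were set to that floor before log2 was taken (8.55), and values below it have no order. Since the split used a measured transcript, and cells of 1 animal cannot be told from cells of several, no test was made and no p-value is given. All differences below describe these 8 arrays, and their number limits the precision.

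*Opn4* itself shows how far the sides lay apart. The array holds a pair of *Opn4* probe sets. The first, 1421584_at, had signals of 11449 in ON DS 1, 41990 in ON hOS 10, 34812 in ON alpha 12 and 12799 in ON alpha 13. The second, 1445121_at, had 34985, 20203, 50210 and 76724 in the same cells. The highest signals of the Opn4- cells were 63.6 at the first probe set and 189 at the second, so no cell lay near the limit of 3000. The lowest signals of the Opn4+ cells were 11449 and 20203. Neither probe set was detected in any of the other 21 cells of the series, where the highest signals were 140 and 356. These values set the sides and are not a finding.

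The comparison below covers genes detected in at least 3 of the 8 cells, which were 3455 of the 18194 genes with a value. A gene was called higher in the Opn4+ cells if its lowest log2 signal there was at least 1 above the highest of the Opn4- cells, and lower if the reverse held. By this rule 116 genes were higher, 3.36% of the genes compared. Only 8 genes, or 0.232%, were lower. Without ON DS 3 the higher genes numbered 219, and without ON hOS 10 they numbered 179. Because *Opn4* chose the cells and is itself among the 116, these shares are a description of the split and nothing is read from them. The differences of the median log2 signals ran from 2.64 to 8.16 for the higher genes, with a median of 4.98, and from -5.96 to -2.54 for the lower genes.

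The number of detected genes, used here as the measure of library depth, moved with the sides. It was 3107 in ON DS 1, 2713 in ON hOS 10, 3716 in ON alpha 12 and 3333 in ON alpha 13. In the Opn4- cells it was 1842 in ON DS 2, 2833 in ON DS 3, 2147 in ON DS 4 and 2023 in ON vOS 9. The ranges overlapped through ON DS 3 and ON hOS 10, and over all 29 cells the median was 2908. Across all compared genes the median difference between the sides was 1.22 on the log2 scale toward the Opn4+ cells. After quantile normalization of the arrays this shift was 0.57, and the split was 81 higher against 18 lower genes, so that higher genes made up 81.8% of those called and not 93.5%. The part of depth in the counts was not tested.

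**Figure D1:**
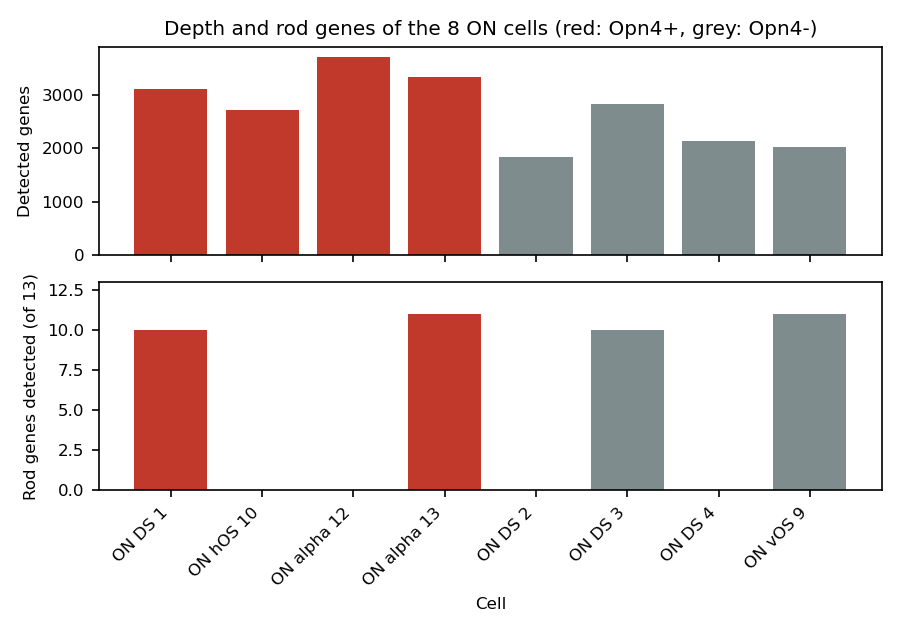
Detected genes (upper panel, number of genes at a signal of 3000 or more) and detected rod genes (lower panel, of 13 with a value) in each of the 8 ON cells, with Opn4+ cells in red and Opn4- cells in grey. Detected genes ran from 2713 to 3716 in the Opn4+ cells and from 1842 to 2833 in the Opn4- cells, and rod genes were detected in 2 cells of each side.

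RNA of other retinal cells was present on both sides. Rod genes were detected in ON DS 1 (10 of 13) and ON alpha 13 (11) among the Opn4+ cells and in ON DS 3 (10) and ON vOS 9 (11) among the Opn4- cells. None was detected in the other 4 cells. The summed rod signal ran from 487 to 1551177 in the Opn4+ cells and from 464 to 3518800 in the Opn4- cells, and none of the 10 rod genes compared was higher or lower. Without these 4 cells the differences of the named genes kept their direction, except *Prkcz*, which went from 2.97 to -2.41, and *Gnaq*, which went from 0 to -3.13. Of 7 cone genes with a value up to 3 were detected in an Opn4+ cell and up to 4 in an Opn4- cell. For 8 amacrine and 8 bipolar cell genes the highest number in any cell was 1. Of 8 vascular and microglial genes up to 2 were detected on either side. No gene of these last 4 lists was detected in enough of the 8 cells to be compared.

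The cells carried the transcripts of RGCs. Of 14 general RGC genes with a value, 10 were detected in each Opn4+ cell and 8 to 11 in the Opn4- cells. *Sncg*, which encodes synuclein gamma, had signals from 114080 to 352639 in the Opn4+ cells and from 157250 to 452385 in the Opn4- cells. Among the 12 compared genes of this list the median difference was 0.14, and only *Gap43*, described with the lower genes, separated the sides.

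*Prph*, which encodes the intermediate filament protein peripherin, had the largest difference of the higher genes, 8.16. Its signals were 106279 in ON DS 1, 114288 in ON hOS 10, 107728 in ON alpha 12 and 70437 in ON alpha 13. In ON DS 2, ON DS 3, ON DS 4 and ON vOS 9 they were 50.3, 14, 28 and 138. The sides did not overlap, and all 4 Opn4- cells lay below the floor. Of the other 21 cells, *Prph* was detected in OFF S alpha 15 and SbC 26 only, with a highest signal of 10146. The other 3 *Prph* probe sets were detected in none of the 8 cells, so the result rests on 1 probe set.

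Below, signals are given in the order ON DS 1, ON hOS 10, ON alpha 12 and ON alpha 13 for the Opn4+ cells, and ON DS 2, ON DS 3, ON DS 4 and ON vOS 9 for the Opn4- cells. The study picked *Prph*, *Ctxn3*, *Irx2*, *Irx6*, *Eomes*, *Prkcq* and *S100b* by their correlation with *Opn4* in this same series. That these genes moved with the *Opn4* split is therefore not independent of that choice.

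*Hs3st4*, which encodes a heparan sulfate 3-O-sulfotransferase, had signals of 14074, 1505, 9845 and 18152 in the Opn4+ cells and of 4, 18.9, 24.8 and 90.9 in the Opn4- cells. The difference of medians was 4.97, and the lowest Opn4+ cell, ON hOS 10, stayed under the detection level. *Hs3st4* was detected in none of the other 21 cells. It was the only one of 6 genes of this enzyme family with a value that was detected in at least 3 of the 8 cells.

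*Ctxn3*, which encodes the small membrane protein cortexin 3, did not separate the sides. Its signals were 84804, 69760, 55861 and 58079 in the Opn4+ cells and 98.7, 93.2, 28.4 and 86962 in the Opn4- cells. ON vOS 9 was thus above every Opn4+ cell, whereas the 3 Opn4- cells of the DS class were below the floor. Within the OS class the difference was -0.32. Outside the 8 cells *Ctxn3* was detected in OFF S alpha 14, OFF S alpha 15 and EyeWire 4i 24.

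Among transcription factors, *Irx6* of the Iroquois homeobox family separated the sides most widely, with a difference of 7.26. Its signals were 101648, 64648, 26125 and 51239 in the Opn4+ cells, and the highest of the Opn4- cells was 141. It was also detected in 5 of the other 21 cells. Its relative *Irx2* had signals of 1017, 4122, 3374 and 5791 in the Opn4+ cells and of 93.4, 122, 521 and 481 in the Opn4- cells. The sides of *Irx2* did not overlap, but ON DS 1 was only 0.97 above ON DS 4 on the log2 scale, just short of the required gap of 1.

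*Eomes*, the T-box factor of ipRGC development, was detected in 3 of the 4 Opn4+ cells at its main probe set. Its signals were 28569, 25568, 4791 and 24.7 in the Opn4+ cells and 81.4, 4.9, 164 and 246 in the Opn4- cells. ON alpha 13 was therefore in the range of the Opn4- cells. *Prkcq*, which encodes protein kinase C theta, behaved likewise with another exception, at 79690, 443, 5457 and 17467 in the Opn4+ cells and at most 429 in the Opn4- cells. Here ON hOS 10 was the cell without detected signal. Neither gene was detected in any of the other 21 cells.

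*S100b*, which encodes a calcium-binding protein, had signals of 9793, 10244, 17240 and 25986 in the Opn4+ cells and at most 96 in the Opn4- cells. The difference of medians was 5.15. A second *S100b* probe set gave 14476, 3748, 21930 and 1756 against at most 34.7, so that both probe sets kept the sides apart. *S100b* was detected in ON-OFF DS 8 and OFF T alpha 17 outside the 8 cells. *Spp1*, another gene the study names with *Opn4*, had no value under its symbol here.

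**Figure D2:**
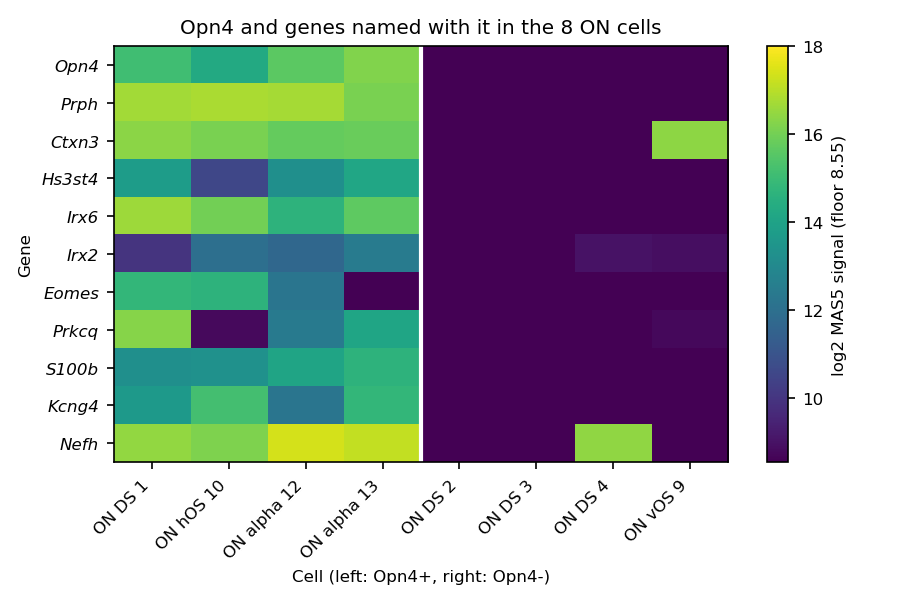
Log2 signals (color, floor 8.55) of *Opn4* and of genes named with it (rows) in the 8 ON cells (columns), with the Opn4+ cells left of the white line. *Opn4*, *Prph*, *Hs3st4*, *Irx6*, *S100b* and *Kcng4* kept the sides apart, while *Ctxn3* was also high in ON vOS 9, *Nefh* in ON DS 4, and *Eomes* and *Prkcq* were each missing from 1 Opn4+ cell. The study picked *Prph*, *Ctxn3*, *Irx2*, *Irx6*, *Eomes*, *Prkcq* and *S100b* by their correlation with *Opn4* in the same series.

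Across all 29 cells, 5 of the 18194 genes with a value were detected in at least 3 Opn4+ cells and in none of the remaining 25. They were *Opn4*, *Eomes*, *Hs3st4*, *Prkcq* and *Mipep*, which encodes a mitochondrial peptidase. No gene was detected in at least 3 Opn4- cells and in none of the 25 cells outside that side. *Opn4* chose the cells, and the median of detected genes was 3220 in the Opn4+ cells and 2085 in the Opn4- cells. Nothing is therefore read from these counts. *Prph* and *Irx6* were left out by the cells named above.

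Promoter sequences are shown for *Opn4* and for 2 genes that moved with it, *Prph* and *Hs3st4*, because *Eomes* and *Irx6* encode DNA-binding factors whose transcripts moved with the same cells. Each runs 5′ to 3′ on the gene's strand from 250 bases before to 50 bases after 1 annotated transcript start, and is taken from RefSeq on build GRCm38.p6. Capitals mark matches to the T-box core AGGTGT, searched on both strands (ACACCT on the other), or to the Iroquois core ACATGT, which reads the same on both. The T-box core lies in the promoters of 15.7% of all genes with a promoter sequence and the Iroquois core in 6.14%. The intervals are chr14:34600093-34600392 on the minus strand for *Opn4*, chr15:99054924-99055223 on the plus strand for *Prph* and chr7:123982578-123982877 on the plus strand for *Hs3st4*. The annotated *Prph* and *Hs3st4* genes begin before these windows, at 99053579 and 123982366, so other starts may lie outside the windows shown.
Opn4: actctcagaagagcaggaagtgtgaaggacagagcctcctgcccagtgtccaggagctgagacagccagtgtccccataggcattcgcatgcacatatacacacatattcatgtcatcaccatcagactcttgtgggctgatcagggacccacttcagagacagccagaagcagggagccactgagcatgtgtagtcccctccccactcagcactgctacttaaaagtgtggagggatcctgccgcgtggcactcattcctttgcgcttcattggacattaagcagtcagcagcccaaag
Prph: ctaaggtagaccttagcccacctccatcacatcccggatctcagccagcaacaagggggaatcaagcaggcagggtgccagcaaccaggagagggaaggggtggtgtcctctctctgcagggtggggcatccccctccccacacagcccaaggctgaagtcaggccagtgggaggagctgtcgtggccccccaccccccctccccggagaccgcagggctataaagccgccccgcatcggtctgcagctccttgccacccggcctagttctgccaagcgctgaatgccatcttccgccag
Hs3st4: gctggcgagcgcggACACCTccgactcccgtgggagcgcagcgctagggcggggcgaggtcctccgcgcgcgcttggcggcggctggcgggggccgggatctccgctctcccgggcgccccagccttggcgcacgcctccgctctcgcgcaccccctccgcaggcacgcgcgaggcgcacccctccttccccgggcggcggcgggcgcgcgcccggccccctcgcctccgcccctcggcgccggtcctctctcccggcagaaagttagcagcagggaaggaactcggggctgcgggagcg
Only *Hs3st4* held a match, 1 T-box core near the 5′ end of the window. Of the 91 higher genes with a promoter sequence 17 held the T-box core (18.7%), and among all compared genes the share was 12.9%. The Iroquois core was in 3 of the 91 (3.3%) and in 2.87% of the compared genes. A match says only that these letters are present.

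*Resp18* and *Syt2* were also among the 10 widest differences. *Resp18*, which encodes a protein of the secretory pathway of neuroendocrine cells, had signals of 156277, 124124, 38856 and 41113 in the Opn4+ cells and at most 273 in the Opn4- cells, a difference of 7.57. *Syt2*, which encodes a calcium sensor of synaptic vesicles, had 46010, 37786, 47519 and 19119 against at most 200, a difference of 6.80. For both genes all Opn4- cells lay below the floor. Neither was particular to the Opn4+ cells in the series as a whole, since *Resp18* was detected in 18 and *Syt2* in 11 of the other 21 cells. A second *Syt2* probe set gave the reverse picture in 1 cell, with 15664 in ON DS 3 and no detected signal in the Opn4+ cells.

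*Pgm1*, which encodes the phosphoglucomutase of glycogen metabolism, had signals of 109767, 63188, 14549 and 41265 in the Opn4+ cells and at most 433 in the Opn4- cells. *Pgp*, which encodes phosphoglycolate phosphatase, had 64126, 69310, 1037 and 40589 against at most 296, and ON alpha 12 stayed under the detection level. Both had a difference of 7.09. The second *Pgp* probe set was detected in ON DS 1 alone, at 8181, and did not separate the sides. The second *Pgm1* probe set was detected in no Opn4+ or Opn4- cell. Of 3 compared genes with symbols starting *Pyg*, a group singled out after its values were seen, *Pygb* and *Pygl* were higher, beside 3.36% of all compared genes. These 2 encode glycogen phosphorylases. *Pygl* had signals of 7916, 100627, 3757 and 31772 in the Opn4+ cells and at most 91 in the Opn4- cells.

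In the remaining 3 of the 10 widest differences 1 Opn4- cell was detected. *Copa*, which encodes a coat protein of Golgi vesicles, had a difference of 7.44, with a signal of 7688 in ON DS 3. *Psap*, the precursor of the lysosomal saposins, had a difference of 7.02, with 7345 in ON DS 4. *Ermp1*, which encodes a metallopeptidase of the endoplasmic reticulum, had a difference of 6.89, with 5175 in ON DS 3. The detected Opn4- cell was still at least 1 log2 unit below every Opn4+ cell. After quantile normalization *Psap* and *Pgp* no longer met the rule, while the other 8 of these 10 did. All 3 genes were detected in at least 11 of the other 21 cells. The other *Copa* and *Ermp1* probe sets were detected in none of the 8 cells. At the second *Psap* probe set the sides overlapped, with 2993 in ON DS 4 against 1585 in ON alpha 12 and 2275 in ON alpha 13.

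**Figure D3:**
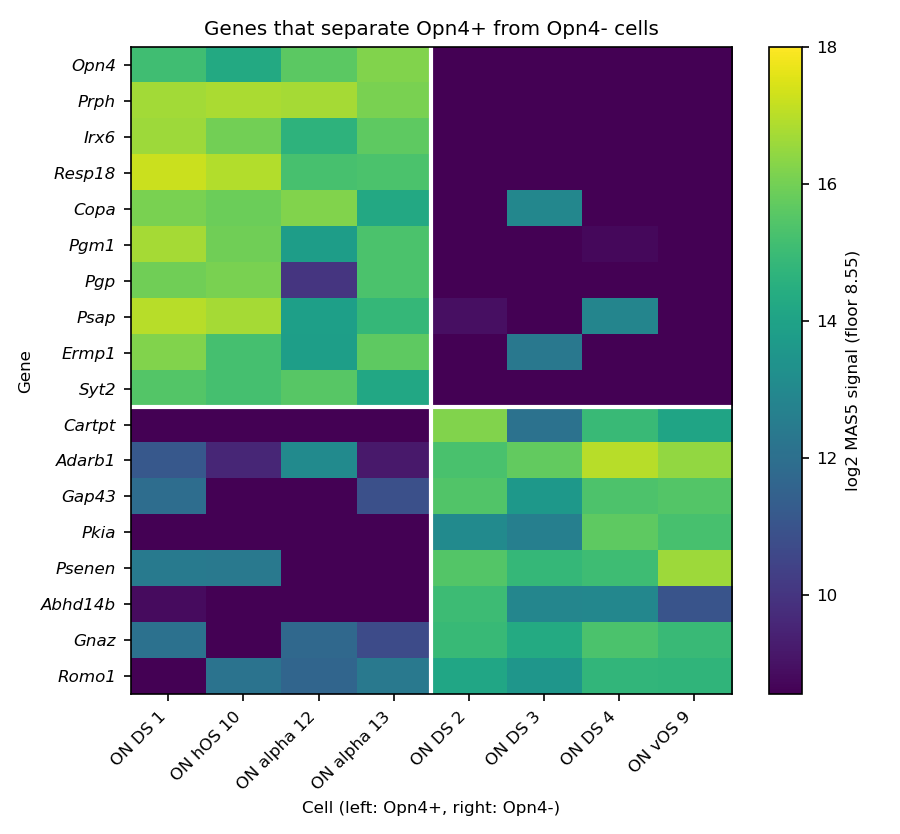
Log2 signals (color, floor 8.55) of the 10 genes with the widest higher difference, *Opn4* included, and of all 8 lower genes (rows, parted by the horizontal white line) in the 8 ON cells (columns, Opn4+ left of the vertical line). *Copa* and *Ermp1* were detected in ON DS 3 and *Psap* in ON DS 4, while *Cartpt* and *Pkia* were below the floor in all 4 Opn4+ cells.

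Detection of the 116 higher genes was uneven. All 4 Opn4+ cells detected 75 of them, and 62 were detected in all 4 Opn4+ cells and in no Opn4- cell. For 70 genes every Opn4- cell lay below the floor, 19 had a difference of at least 6, and 32 had a signal of at least 10000 in all 4 Opn4+ cells. In the other 21 cells of the series the median gene was detected in 9 cells. In that comparison 46 genes were detected in at least 11 cells and 28 in 1 to 5. Only *Opn4* and *Hs3st4* were detected in none of them.

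Potassium channel subunits, a group also singled out after its values were seen, gave 5 of the higher genes among 22 compared, beside 3.36% of all compared genes. Since the group was picked for its members, nothing is read from that count. *Kcng4*, a modifier subunit and a known marker of alpha cells, had signals of 13055, 36557, 4818 and 28746 in the Opn4+ cells and at most 188 in the Opn4- cells. *Kcna1*, which encodes a delayed rectifier subunit, had 27723, 23130, 52592 and 13730 against at most 727. *Kcnd2*, which encodes an A-type channel subunit, had 2543, 35912, 8840 and 18676 against at most 15.4. The others were *Kcnip4*, which encodes a partner of A-type channels, and *Kcnmb4*, an accessory subunit of calcium-activated channels, with a signal of 113865 in ON DS 1 and 1570 in ON hOS 10. No compared member of the group was lower, and the same 5 genes met the rule after quantile normalization.

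Semaphorins, guidance proteins of growing axons and likewise singled out after their values were seen, gave 3 higher genes of 6 compared, beside the same 3.36%. *Sema5a* had signals of 19245, 30986, 24356 and 20471 in the Opn4+ cells and at most 187 in the Opn4- cells. *Sema5b* had 22104, 19238, 20572 and 8477 against at most 90.8. *Sema3a* was less even, from 1307 in ON DS 1 to 62025 in ON hOS 10, and did not meet the rule after quantile normalization. Of 7 compared synaptotagmin genes, a family picked in the same way, *Syt2* and *Syt7* were higher, again beside 3.36%.

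Of the 6 compared intermediate filament genes, *Prph* and *Vim* were higher and none was lower, beside 3.36% and 0.232% of all compared genes. *Vim*, which encodes vimentin and is also abundant in Müller glia, had signals of 6929, 1051, 14280 and 14990 in the Opn4+ cells and at most 174 in the Opn4- cells. Of 10 Müller glia genes with a value, 2 to 4 were detected in an Opn4+ cell and 1 to 3 in an Opn4- cell, and *Vim* was the only one of 4 compared that separated the sides. *Nefh*, the heavy neurofilament subunit, had the largest difference of medians of all compared genes, 8.25, yet did not separate them. Its signals were 90368, 74581, 172399 and 144041 in the Opn4+ cells and 10.9, 53.7, 88064 and 230 in the Opn4- cells, and ON DS 4 lay above ON hOS 10.

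Among 9 alpha cell genes with a value, 3 were compared and *Kcng4* alone was higher. *Armh4* and *Pigo*, which is part of the synthesis of membrane anchors, were high in the ON alpha cells but not in the other Opn4+ cells. *Pigo* had signals of 66, 16.8, 4040 and 25424 in the Opn4+ cells. The study named *Pigo* as an alpha cell marker from this same series. Both ON alpha cells exceeded the other 6 ON cells by at least 1 log2 unit in 19 of the 3455 compared genes. Of these, *Jph3*, a junctophilin, had the widest gap, 2.12. Both also had more detected genes than the other 6, at 3716 in ON alpha 12 and 3333 in ON alpha 13. The highest of the other 6 was ON DS 1 at 3107. The part of depth in the count of 19 was not tested.

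Other genes known from ipRGCs varied between the Opn4+ cells. *Nmb*, which encodes the peptide neuromedin B, was detected in ON DS 1 (33048) and ON alpha 12 (9219). *Adcyap1*, which encodes the peptide PACAP of ipRGCs, was detected in ON DS 1 alone at 3596. *Lmo2* was detected in ON hOS 10 alone at 30777. *Rasgrp1*, which encodes an activator of Ras, ran toward the Opn4- side with a difference of -2.0, at 10943 in ON alpha 13, 18287 in ON DS 3 and 6000 in ON DS 4. *Igf1*, which encodes a growth factor, was detected in ON alpha 12 and ON alpha 13 and in the Opn4- cell ON DS 2, at 9092, 38655 and 41264. Of 11 ipRGC genes with a value 5 were compared. None separated all 4 against all 4 cells, and *Eomes* alone, at its main probe set, was higher in the Opn4+ cell of both classes.

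Many of the transduction genes of melanopsin were detected in none of the 8 cells. Of 20 cascade genes with a value, 9 were detected in any of the 8 cells, 5 were compared, and none was higher or lower. With 3.36% of all compared genes higher, a count of 0 among 5 does not set these genes apart. *Plcb4*, the phospholipase C of ipRGC signaling, had signals of 8293, 33305, 50435 and 23069 in the Opn4+ cells and of 74.1, 20589, 40710 and 146 in the Opn4- cells. All Opn4+ cells thus had *Plcb4*, but so did ON DS 3 and ON DS 4, and 18 of the other 21 cells. *Plcb1*, a related phospholipase, was highest in the Opn4- cell ON vOS 9 at 72622, against 585, 9.6, 3398 and 14358 in the Opn4+ cells.

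The G protein subunit genes were detected in few cells. *Gnaq* was detected in ON alpha 13 (15989) and ON DS 4 (28614) only. *Gna11* was detected in ON alpha 12 (3616), ON DS 2 (11446) and ON DS 4 (71724), and its difference of medians was -2.39. ON DS 1 and ON hOS 10 had neither gene at the main probe set, although another *Gnaq* probe set gave 3666 in ON DS 1. A signal below the detection level in an amplified library does not show that the transcript was absent from the cell.

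Of the channels, *Trpc1* was detected in ON alpha 12 alone, at 5435, with 24, 2281 and 2272 in ON DS 1, ON hOS 10 and ON alpha 13 and at most 110 in the Opn4- cells. *Trpc6* and *Trpc7*, the channel genes best known from ipRGCs, were below the floor in all 8 cells. Of *Trpc1*, *Trpc6* and *Trpc7*, none was thus detected in an Opn4+ cell other than ON alpha 12.

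Among regulators of the response, *Arrb1*, which encodes beta-arrestin 1, had signals of 82731, 24167, 48308 and 14785 in the Opn4+ cells and of 44294, 39606, 104 and 21.9 in the Opn4- cells. The sides overlapped, since ON DS 2 and ON DS 3 lay above ON hOS 10. At its main probe set *Arrb2* was detected in ON hOS 10 alone at 9357, with 2374 in ON DS 1. A second *Arrb2* probe set gave 28997 in the Opn4- cell ON DS 3 and 3568 in ON DS 1. *Prkcz*, which encodes an atypical protein kinase C, had 1607, 99.4, 7038 and 25061 in the Opn4+ cells and was highest in ON DS 4 at 198440. Another *Prkcz* probe set ran the other way, with 13063, 6.3, 19473 and 9951 in the Opn4+ cells and at most 1141 in the Opn4- cells. *Dgkz*, which encodes a diacylglycerol kinase, was detected in ON DS 2 (54940) and ON DS 3 (8247) only.

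Of the 8 lower genes, *Cartpt* had the largest difference. *Cartpt*, which encodes the CART peptide and marks many direction-selective cells, had signals of 75979, 4454, 32046 and 17084 in the Opn4- cells and at most 129 in the Opn4+ cells, a difference of -5.96. The ON DS cell of the Opn4+ side thus lacked detected *Cartpt*, and ON vOS 9 of the OS class had it. *Gap43*, a growth cone protein, had 44100, 12407, 42118 and 45165 in the Opn4- cells and 3897, 84.1, 104 and 1855 in the Opn4+ cells, so that ON DS 1 was the 1 Opn4+ cell with a detected signal. *Cartpt* was the only lower gene among the 4 compared direction-selective cell genes, beside 0.232% of all compared genes. The median difference of this list was -4.79, against 1.22 for all compared genes. Since ON DS 2, ON DS 3 and ON DS 4 were Opn4- and only ON DS 1 was Opn4+, class and side cannot be told apart in that value. The list also holds *Pcdh8*, which the study named as selective for DS cells from this same series.

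*Pcdh8*, a protocadherin on the same list, had 94891, 93859 and 26297 in ON DS 2, ON DS 3 and ON DS 4 and 1465 in ON DS 1. It did not separate the sides because ON vOS 9 had 7.9. *Disp3*, also on that list, was detected in ON DS 1 at 59551 as in the other 3 ON DS cells, whose lowest signal was 32836. ON DS 1 therefore shared some but not all genes of this list with the other ON DS cells. The study named *Pcdh8* as selective for DS cells from this same series, so its signals are no independent measure of the class.

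The other lower genes had varied functions. *Adarb1*, which encodes an RNA-editing enzyme, had signals of 39544, 54211, 130201 and 89633 in the Opn4- cells and of 2285, 761, 8589 and 594 in the Opn4+ cells, a difference of -5.72. *Pkia*, which encodes an inhibitor of protein kinase A, had 8584, 6353, 51020 and 38600 in the Opn4- cells and at most 99.2 in the Opn4+ cells, a difference of -5.60. The second *Pkia* probe set was detected in no Opn4+ or Opn4- cell. *Gnaz*, which encodes a G protein subunit of the Gi family, had 30921, 20414, 41284 and 31444 in the Opn4- cells and at most 4284 in the Opn4+ cells. Its second probe set did not separate the sides, with 48979 in ON DS 1 and 12.5 in ON DS 4.

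*Psenen*, a subunit of gamma-secretase, differed by -4.82 with signals of at least 29169 in the Opn4- cells and at most 5610 in the Opn4+ cells. *Abhd14b*, which encodes a hydrolase, differed by -4.36, and ON vOS 9 stayed below the detection level at 2059. *Romo1*, a mitochondrial membrane protein, differed by -2.54, and 3 Opn4+ cells detected it at up to 5242. Of the 8 genes, 7 were detected in all 4 Opn4- cells and 3 in no Opn4+ cell. The count of lower genes was 20 without ON DS 2, 22 without ON DS 3, 21 without ON DS 4, 26 without ON vOS 9 and 15 without ON alpha 13.

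Class and *Opn4* were partly joined in these cells, since both ON alpha cells were Opn4+ and no ON alpha cell was Opn4-. All ON DS cells except ON DS 1 were Opn4-. Only the DS and OS classes held cells of both sides. Among the ON DS cells, ON DS 1 exceeded the highest of the other 3 by at least 1 log2 unit in 538 genes (15.6% of those compared) and lay below the lowest in 152. Among the OS cells, ON hOS 10 exceeded ON vOS 9 in 1394 genes (40.3%) and lay below it in 1060. In the OS class preferred orientation and *Opn4* cannot be told apart, as there was 1 cell of each kind. The OS cells also differed in rod RNA and depth. Of 13 rod genes ON vOS 9 detected 11 and ON hOS 10 detected 0, and their detected genes numbered 2023 and 2713. Neither rod RNA nor depth can be told apart from *Opn4* in this class.

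In both classes together, 254 genes (7.35%) were higher in the Opn4+ cell and 41 (1.19%) were lower. All 116 genes that separated all 8 cells are among the 254, and all 8 lower genes among the 41, which the rules fix by construction. Without ON DS 3 the 254 became 425. Of the genes described above, *Opn4*, *Prph*, *Hs3st4*, *Irx6*, *S100b*, *Kcng4* and *Vim* thus held within both classes at their main probe sets. So did *Eomes*, which failed there only in ON alpha 13. At the second *Eomes* probe set ON hOS 10 had 20.9 and ON vOS 9 had 12.8, so that it held within the DS class only. *Ctxn3* and *Prkcq* held within the DS class only. The gap of ON DS 1 over the highest other ON DS cell was 8.15 for *Prph*, 8.08 for *Irx6* and 5.23 for *Hs3st4*. In the OS class the gaps were 8.25, 7.43 and 2.00. *Vim* had 4.21 in the DS class and 1.49 in the OS class, but at its other probe sets ON hOS 10 had only 68.5 and 600, so that neither held within the OS class.

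**Figure D4:**
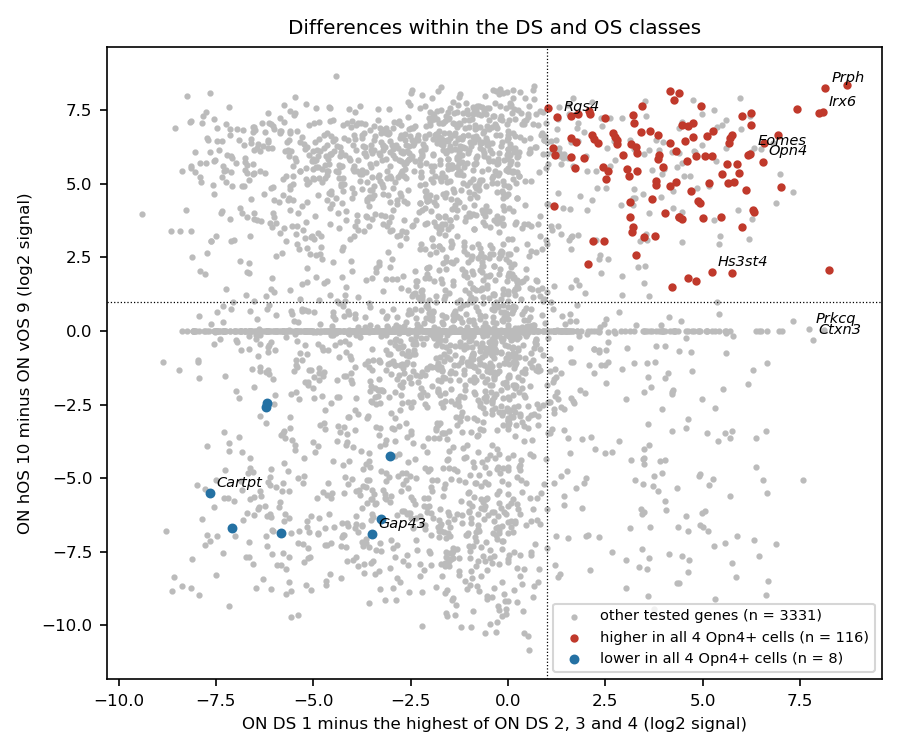
Each point is 1 of the 3455 compared genes, with the log2 signal of ON DS 1 minus the highest of ON DS 2, 3 and 4 on the x axis and ON hOS 10 minus ON vOS 9 on the y axis. Dotted lines mark a gap of 1, and the upper right field holds 254 genes, of which the 116 higher in all 4 Opn4+ cells are red. The 8 lower genes (blue) lie at negative values on both axes, and *Ctxn3* and *Prkcq* lie near 0 on the y axis.

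The other 138 genes of the 254 did not separate all 8 cells. Both ON alpha cells detected 44 of them, 1 detected 85 and neither detected 9. *Timm10b* and *Mrpl19*, which encode mitochondrial proteins and were chosen after their values were seen, belong to the last group. *Mrpl19* had 22263 in ON DS 1 and 21124 in ON hOS 10 and at most 32.3 in the ON alpha cells. Leaving the ON alpha cells out raised the number of separating genes from 116 to 214.

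The 116 higher genes were also followed into the rest of the series, whose 21 cells the rule did not use. A median of 46.6% of them was detected per cell, from 6.9% in SbC 26 to 77.6% in OFF T alpha 17. For all compared genes the median share was 56.5%, from 24.3% to 75%. In the 7 OFF alpha cells the medians were 49.1% of the higher genes and 59.2% of all compared genes, and in the 4 ON-OFF DS cells 47% and 61.4%. In the Opn4- cells the corresponding medians were 4.74% and 46.8%. The rule keeps genes that are nearly absent from the Opn4- cells, while a compared gene may be detected in all 8 cells, so nothing is read from the lower shares of the higher genes.

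Similarity over all compared genes was examined by Pearson correlation of log2 signals between cells, as a description across genes, which are not independent replicates. The mean r was 0.27 (SD 0.09, 6 pairs) within the Opn4+ cells, 0.18 (SD 0.05, 6 pairs) within the Opn4- cells and 0.20 (SD 0.08, 16 pairs) between them. Pairs share cells, and the ranges overlapped, from 0.17 to 0.42 within the Opn4+ cells and from 0.05 to 0.35 between the sides. Without the genes that separate the sides the 3 means were 0.27, 0.16 and 0.22. ON DS 1 had its highest r with ON alpha 12 (0.42) and then with ON DS 4 (0.35), and ON hOS 10 had its highest with ON alpha 12 (0.29) and its lowest with ON vOS 9 (0.05). ON alpha 12 was also the cell with the most detected genes, and the part of depth in these values was not tested.

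**Figure D5:**
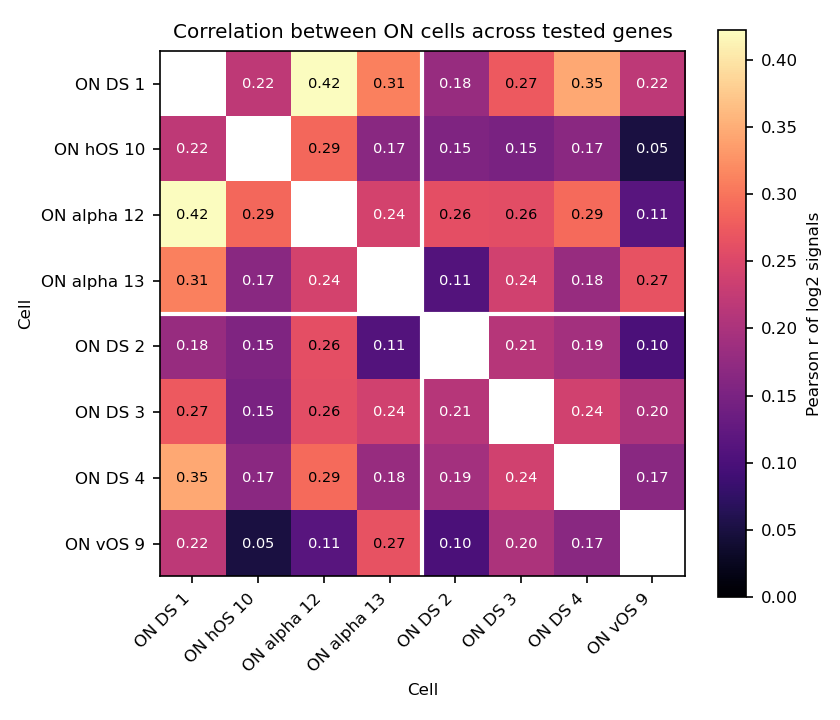
Pearson r of log2 signals over the 3455 compared genes for each pair of the 8 ON cells, with Opn4+ cells before the white lines and Opn4- cells after them. The highest value, 0.42, joined ON DS 1 with ON alpha 12, and the lowest, 0.05, joined the OS cells ON hOS 10 and ON vOS 9.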

How the data were processed

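Single adult C57BL/6J mouse RGCs (C57BL/6 in the labels), classified by their light responses, were hybridized 1 cell per array. The authors computed the deposited signals, which are linear intensity values, with MAS5 (version not given in the sources used here). They cover 45101 probe sets in 29 cells, from 0.14 to 2096650, with a 2% trimmed mean of 1500 on every array. Oligo-dT priming and PCR amplification of 1 soma lose and distort transcripts, so that an undetected gene may have been present.

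Probe sets were named from the platform annotation, with 34754 matched by gene identifier to RefSeq (build GRCm38.p6) and no symbol changed. Probe sets of several genes (932) or without a name (9211) were left out, which left 34958 for 18194 genes. Where a gene had several probe sets, the 1 whose log2 signals had the highest mean across all cells was used. Detection was set at 3000 and the floor at the trimmed mean divided by 4. Of the named genes 22 had several probe sets.

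The members, lists, thresholds and rules were chosen with earlier results of these data known. Named were the 4 rule markers (*Opn4*, *Prph*, *Ctxn3*, *Hs3st4*), the genes the study names with *Opn4*, the 10 largest differences of medians in each direction, members of 20 gene lists that met a rule, and cascade genes detected in any of the 8 cells, 35 genes in all. The code was run on permuted data with planted genes that met the rules by design. That run checked only that such genes were found, and false calls were not counted. Alternatives were detection at 1500 or 6000 or none, floors of 3 or 1500, gaps of 0 or 2, quantile normalization, other treatment of probe sets, and leaving out cells. The software was matplotlib 3.10.9, pandas 2.3.3, numpy 2.4.6 and scipy 1.17.1 under Python 3.11.15.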

Additional observations from a re-analysis of the deposited data

Results flagged for a closer look

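Of the 35 named genes, 17 had 1 cell of the 4 ON DS cells far from the other 3, in the sense that its gap to the nearest, as a share of the whole range of log2 signals, passed Dixon's critical value for 4 samples. The cell was ON DS 1 in 15 cases. It is also the 1 ON DS cell chosen by its *Opn4* signal, most of these genes were named for separating the same cells, and cells below the floor are set to 1 value, which makes the gap the whole range. The chance rate of about 1 in 20 groups therefore does not apply, and nothing is read from the number of such genes. Its signals were 34985 for *Opn4*, 106279 for *Prph*, 84804 for *Ctxn3*, 14074 for *Hs3st4*, 28569 for *Eomes*, 101648 for *Irx6*, 79690 for *Prkcq* and 9793 for *S100b*. For genes of secretion, metabolism, channels and filaments its signals were 156277 for *Resp18*, 109767 for *Pgm1*, 64126 for *Pgp*, 46010 for *Syt2*, 13055 for *Kcng4* and 6929 for *Vim*. *Arrb2*, at 2374, was under the detection level at its main probe set. ON DS 4 stood apart from the other ON DS cells with 28614 for *Gnaq*, which was high, and 104 for *Arrb1*, which was low.

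For 2 genes the Opn4+ cell was above the others in the DS class and below in the OS class. The OS differences were -0.32 for *Ctxn3* and -7.60 for *Plcb1* on the log2 scale. This difference between classes was not tested.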

How the results depend on the processing

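The count of higher genes, 116, was 75 with a floor of 1500, 214 without the ON alpha cells and 603 without the 4 cells in which 5 or more rod genes were detected, which leaves 2 cells a side. Leaving out 1 cell at a time gave 137 to 219. The count of lower genes, 8, was 18 after quantile normalization, 27 with a gap of 0, 28 without the ON alpha cells, 166 without the rod cells and 8 to 26 with 1 cell left out. Fewer cells can only loosen a rule on all cells. Genes higher in both classes, 254, were 415 without a detection filter, 428 with a gap of 0 and 254 to 425 with 1 cell left out. This last count could not be had without the rod cells, ON DS 1, ON hOS 10 or ON vOS 9. The mean r within the Opn4+ cells, 0.27, was 0.57 without a detection filter and 0.45 where all probe sets of a gene were averaged.

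With 1 cell left out all 116 higher genes were called again, which the rule fixes by construction. Of the 116, 74 were called after quantile normalization and 76 where probe sets were averaged. Of 700 differences of named genes under alternatives, 695 kept their direction. For the named genes that separate the sides, leaving out cells cannot turn the direction. The exceptions were *Prkcz* at -2.41 without the rod cells, *Gna11* at 0.07 without ON DS 2 or without ON DS 4 (range -4.86 to 0.07 with 1 cell left out), and *Arrb1* at -0.21 without ON DS 4 or without ON vOS 9 (range -0.21 to 6.51). *Gnaq*, with a difference of 0, had no direction to lose. The causes of these changes were not tested. No paired analysis was possible because each cell has a number of its own and the sides share none. The number of arrays and the detection level limit what low signals can show.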
